A study of Sus scrofa with 15 samples.

Results

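The genes described here are 10 that serve sperm binding and egg activation, chosen by symbol out of the 22516 genes of the pig gene table: *CD9*, *CD81*, *IZUMO1R*, *ASTL*, *ITPR1*, *STIM1*, *ORAI1*, *TRPM7*, *CAMK2G* and *PPP3CA*. Their RNA was measured by RNAseq in pools of 15 pig oocytes, with 5 libraries a group from 5 independent collections of sow ovaries obtained at an abattoir. GV oocytes, with an intact germinal vesicle, were taken from fresh follicles and not cultured. MII oocytes had been matured *in vitro* for 44 h inside their cumulus complexes and showed a first polar body, whereas ‘damaged’ oocytes had the same 44 h of culture but showed none. Cumulus cells were removed from all 3 groups with hyaluronidase. The groups thus compare oocytes before and after maturation in culture, and, among the cultured ones, those with and without a polar body.

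The egg meets the sperm at its membrane, where *IZUMO1R* (JUNO) is the receptor for the sperm protein IZUMO1 and the tetraspanins *CD9* and *CD81* take part in membrane fusion. Fusion sets off repeated releases of calcium from the endoplasmic reticulum through the inositol trisphosphate receptor *ITPR1*, and the stores are refilled by entry across the membrane, sensed by *STIM1* and carried by channels such as *ORAI1* and *TRPM7*. Calcium then triggers the release of cortical granules, which carry the protease ovastacin (*ASTL*) that hardens the zona pellucida against further sperm, and it ends the meiotic arrest through the kinase *CAMK2G* and the phosphatase calcineurin, of which *PPP3CA* is a catalytic subunit.

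Library totals lay between 12.0 and 23.6 M estimated counts, except 6.40 M in GV library 3, the shallowest, which was left out of tests and means (n = 4 GV, 5 MII and 5 ‘damaged’ libraries) and is given apart. Levels are CPM, counts scaled to a common library total, here after correction by the trimmed mean of M-values (TMM), and a gene was called upregulated or downregulated at a Benjamini-Hochberg adjusted p under 0.01 in limma, over 13220 genes tested. A called gene past an absolute log2 fold change of 2 is a DEG. The TMM factors were 1.35 to 1.73 in GV libraries and 0.794 to 0.922 in the others, so the scaling matters: over all 13220 genes, the median log2 fold change was -0.17 for MII versus GV and -0.14 for ‘damaged’ versus GV with TMM, -0.12 and -0.10 with DESeq2 size factors, and -1.09 and -1.01 with library sizes alone. All levels are relative to the other RNA of a library, and the amount of RNA per oocyte was not measured. Upregulated and downregulated thus mean a higher or lower relative level. A higher relative level can go with fewer molecules per oocyte, where other RNAs fell more. Summed over 11 oocyte markers (*GDF9*, *BMP15* and zona pellucida genes among them), none of them at 0 in any group, levels were 10528 to 12383 CPM in GV, 5433 to 7906 CPM in MII and 6029 to 7987 CPM in ‘damaged’ libraries. The 13 cumulus and granulosa markers with a value summed to 9.56 to 13.5, 17.8 to 28.1 and 21.9 to 28.4 CPM in these groups (16.5 to 19.6, 14.9 to 23.0 and 18.2 to 24.0 CPM on library sizes), with *AMH* at 0 in MII. *FST* alone made up 6.48 to 8.74, 15.5 to 24.6 and 18.9 to 24.95 CPM of these sums, and the other 12 markers together had 2.52 to 6.80, 2.29 to 8.03 and 2.87 to 4.93 CPM, which overlapped. The 3 sperm markers summed to at most 1.01 CPM in any library. The 6 blood and immune markers summed to 7.08 to 11.8 CPM in GV, 4.69 to 6.06 CPM in MII and 4.90 to 6.18 CPM in ‘damaged’ libraries, with 30.2 CPM in GV library 3. Their part in the results was not tested.

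*TRPM7* was the only upregulated member, and 5 members were downregulated from GV to MII: *CD81*, *IZUMO1R*, *ASTL*, *ITPR1* and *ORAI1*. That is 1 of 9 members tested called upregulated where 28.2% of all genes tested were, and 5 of 9 called downregulated where 34.2% were (6 of 9 in either direction, against 62.4%). From GV to ‘damaged’, *TRPM7* was again the 1 upregulated member (28.0% of all genes tested) and 4 were downregulated (33.4%; 61.4% in either direction), the 5 named before without *ASTL*. *IZUMO1R* and *ORAI1* were DEGs in both, where 17.0% and 16.4% of all genes were downregulated DEGs, and no member was an upregulated DEG (4.51% and 4.08% of all genes). Both comparisons use the same 4 GV libraries, so they are not independent. *CD9* was too low to be tested, and *STIM1*, *CAMK2G* and *PPP3CA* were not called in either. On library sizes alone, 8 of the 9 members were called lower in each comparison and *TRPM7* higher. Most genes were called lower on that scale: of all 13220 genes tested, 7609 were called lower and 1447 higher in MII versus GV. In ‘damaged’ versus GV, 7402 were called lower and 1476 higher.

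**Figure D1:**
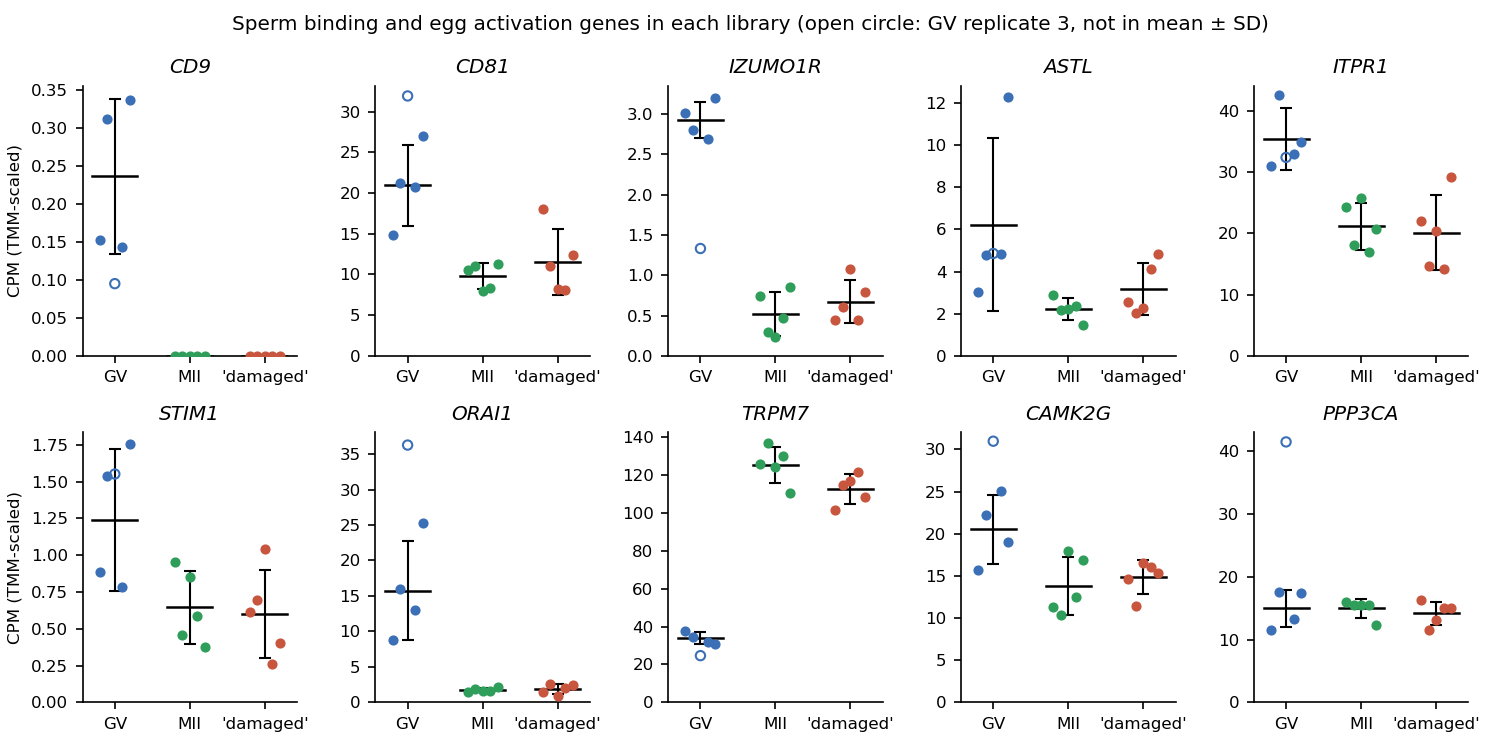
TMM-scaled CPM (y axis, linear, from 0, own scale per gene) of the 10 genes in each GV, MII and ‘damaged’ library (points); bars are the mean ± SD without GV library 3, which is an open circle. *TRPM7* is above 100 CPM in every cultured library and at most 37.8 CPM in GV, and *CD9* is at 0 in all 10 cultured libraries.

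Of the sperm binding genes, *CD81* and *IZUMO1R* were downregulated, and *CD9* had counts in GV libraries only. *CD9* (chromosome 5, 64420177 to 64459783; Sscrofa11.1, position by symbol in RefSeq, as for the genes that follow) had 2.99, 6.08, 3.02 and 8.11 estimated counts in GV libraries 1, 2, 4 and 5 and 1.03 in GV library 3. It had 0 counts in each of the 5 MII and 5 ‘damaged’ libraries. As a limit, 3 counts over a group were taken as the most that a count of 0 allows. The *CD9* level in GV was 5.73-fold that limit for MII and 5.86-fold for ‘damaged’ oocytes with TMM. On library sizes it was 10.8- and 10.7-fold. The limit covers counting error of the 0 only, and not the error of the 20.2 counts in GV, so these folds are not lower bounds. Even in GV it was at 0.572 ± 0.317 TPM (a level corrected for transcript length; SD, n = 4), the lowest of the 10 members.

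*CD81* (chromosome 2, 1625728 to 1641662) had 14.8, 21.3, 20.7 and 27.0 CPM in GV libraries 1, 2, 4 and 5, 10.6, 11.0, 7.93, 8.31 and 11.2 CPM in MII libraries 1 to 5, and 18.0, 11.0, 8.16, 8.08 and 12.3 CPM in ‘damaged’ libraries 1 to 5. All MII libraries lay below all GV libraries (as for 33.0% of all genes), whereas ‘damaged’ library 1 reached into the GV range. Its log2 fold change was -1.08 (SE 0.225, adjusted p = 2.46e-04) in MII and -0.91 (SE 0.221, adjusted p = 0.00111) in ‘damaged’ versus GV, a 2.12-fold and 1.88-fold lower level, and -1.99 and -1.78 on library sizes. GV library 3 was higher than the other GV libraries at 31.9 CPM.

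*IZUMO1R* (chromosome 9, 26516091 to 26520949), the sperm receptor, had 3.01, 2.81, 2.69 and 3.20 CPM in GV libraries 1, 2, 4 and 5, 0.749, 0.300, 0.229, 0.472 and 0.860 CPM in MII libraries 1 to 5, and 0.451, 0.601, 1.08, 0.444 and 0.795 CPM in ‘damaged’ libraries 1 to 5. Every cultured library lay below every GV library, in MII as in ‘damaged’ (31.8% of all genes did so for ‘damaged’). The log2 fold change was -2.55 (SE 0.339, adjusted p = 1.41e-06) in MII and -2.12 (SE 0.315, adjusted p = 5.98e-06) in ‘damaged’ versus GV, 5.84-fold and 4.34-fold lower, and -3.46 and -2.995 on library sizes. These levels rest on few counts, 54.7 to 77.0 estimated counts per GV library, 2.95 to 13.8 per MII library and 5.93 to 17.8 per ‘damaged’ library. Without ‘damaged’ library 4, its fold change from GV to ‘damaged’ was -1.98, under the DEG limit, and still called (adjusted p = 4.27e-05). GV library 3 had 1.33 CPM, between the other GV libraries and the cultured ones.

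*ASTL* (chromosome 3, 47058104 to 47071681), the cortical granule protease, had 3.01, 4.78, 4.85 and 12.3 CPM in GV libraries 1, 2, 4 and 5, 2.90, 2.18, 2.21, 2.36 and 1.48 CPM in MII libraries 1 to 5, and 2.56, 2.03, 2.28, 4.12 and 4.84 CPM in ‘damaged’ libraries 1 to 5. All MII libraries were below all GV libraries, the nearest pair being 2.90 CPM in MII 1 and 3.01 CPM in GV 1, while ‘damaged’ libraries 4 and 5 overlapped with GV. *ASTL* was downregulated in MII, with a log2 fold change of -1.34 (SE 0.366, adjusted p = 0.00289), and its value in ‘damaged’ versus GV was -0.86 (SE 0.347, adjusted p = 0.0321), not called. Both rest on single libraries: without GV library 5, which stood far above the others, the MII value was -0.92 (adjusted p = 0.0102), and without MII library 5 it was -1.19 (adjusted p = 0.0113), neither called. Without GV library 1 the ‘damaged’ value was -1.12 and called (adjusted p = 0.00505), and so was MIX versus GV at -1.10 (adjusted p = 0.00262). On library sizes the values were -2.23 and -1.72, and both were called.

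*ITPR1* (chromosome 13, 61068131 to 61398918), the calcium release channel, had 31.0, 42.6, 33.0 and 34.9 CPM in GV libraries 1, 2, 4 and 5, 24.3, 18.0, 25.9, 16.9 and 20.7 CPM in MII libraries 1 to 5, and 22.1, 14.7, 20.3, 14.3 and 29.2 CPM in ‘damaged’ libraries 1 to 5. No cultured library reached the lowest GV library, although ‘damaged’ 5 at 29.2 CPM came close to GV 1 at 31.0 CPM. It was downregulated, with a log2 fold change of -0.76 (SE 0.193, adjusted p = 0.00163) in MII and -0.85 (SE 0.194, adjusted p = 6.05e-04) in ‘damaged’ versus GV, 1.69-fold and 1.81-fold lower, and -1.67 and -1.73 on library sizes. With only the 8 libraries whose names agree in both kinds of file, a choice made after seeing the data, the values were -0.68 (adjusted p = 0.0458) and -0.70 (adjusted p = 0.0414), not called.

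For 2 *ITPR1* transcripts the share of the gene differed between GV and cultured oocytes. The shares of a gene add up to its whole, so a lower share of 1 transcript raises those of the others. The 2 calls are therefore not independent. How often transcripts of other genes shift in this way was not counted here. Of its 4 annotated transcripts with a value, 3 held more than 5% of the gene's TPM in GV or in MII and ‘damaged’ joined (MIX), and 1 of them, ENSSSCT00000067054 (3439 bases), held 84.5, 87.4, 85.9 and 72.6% in GV libraries 1, 2, 4 and 5, 48.4, 34.4, 23.4, 44.9 and 32.2% in MII libraries 1 to 5, and 50.8, 40.3, 53.5, 34.4 and 13.3% in ‘damaged’ libraries 1 to 5. No MIX library reached the lowest GV library. The mean share was 82.6% ± 6.76 (SD, n = 4) in GV and 37.6% ± 12.7 (SD, n = 10) in MIX, a difference of -45.1 points (two-sided exact permutation test of 10 against 4 libraries, p = 0.0020, the smallest it allows, adjusted p = 0.00699 over 7 transcripts of *ITPR1* and *CAMK2G*).

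The shortest of the 3, ENSSSCT00000077928 (1508 bases), held 10.4, 7.83, 7.10 and 15.4% in GV libraries 1, 2, 4 and 5, 33.2, 39.4, 63.9, 35.8 and 58.3% in MII libraries 1 to 5, and 38.0, 40.5, 34.7, 45.2 and 69.5% in ‘damaged’ libraries 1 to 5. All MIX libraries were above all GV libraries, and the mean share was 10.2% ± 3.74 (SD, n = 4) in GV and 45.9% ± 13.1 (SD, n = 10) in MIX, 35.7 points higher (exact permutation p = 0.0020, adjusted p = 0.00699). For the longest, ENSSSCT00000041714 (9454 bases), the shares were 4.76% ± 4.15 (n = 4) and 13.8% ± 7.05 (n = 10), with overlap and an adjusted exact permutation p of 0.0559, so it was not called. It was called, at a difference of 25.6 points (adjusted exact permutation p = 0.0420), where shares were taken from estimated counts, which are not corrected for length. It was also called, at 8.57 to 10.8 points in place of 9.02, with all 5 GV libraries, with MII against GV alone, without GV library 5 and without ‘damaged’ library 4 (adjusted exact permutation p = 0.0451, 0.0370, 0.0490 and 0.00653). As levels, the 3439-base transcript had 20.1 ± 5.00 TPM in GV, 2.50 ± 0.721 TPM in MII and 2.45 ± 1.05 TPM in ‘damaged’ (SD). The 1508-base transcript had 2.51 ± 1.27, 3.34 ± 1.67 and 3.40 ± 2.52 TPM, groups that overlapped. The 9454-base transcript had 1.24 ± 1.10, 1.03 ± 0.329 and 0.896 ± 0.691 TPM, groups that overlapped as well. TPM carries no TMM correction, so a transcript's change between groups depends on the scaling, as it does for genes. On TPM, the shift in shares went with a lower level of the 3439-base transcript. Transcript levels with TMM were not computed. Against GV alone, ‘damaged’ gave no call (0 of 7, smallest adjusted exact permutation p 0.0556, limit 0.05), and 5 against 4 libraries cannot give a raw p under 0.0159. With 2 of 7 transcripts at that raw p, the adjusted value cannot go under 0.0556, however large the shift. The differences in ‘damaged’ were -44.2 points for the 3439-base transcript and 35.4 points for the 1508-base one. The missing call thus does not show that ‘damaged’ oocytes lack the shift.

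**Figure D2:**
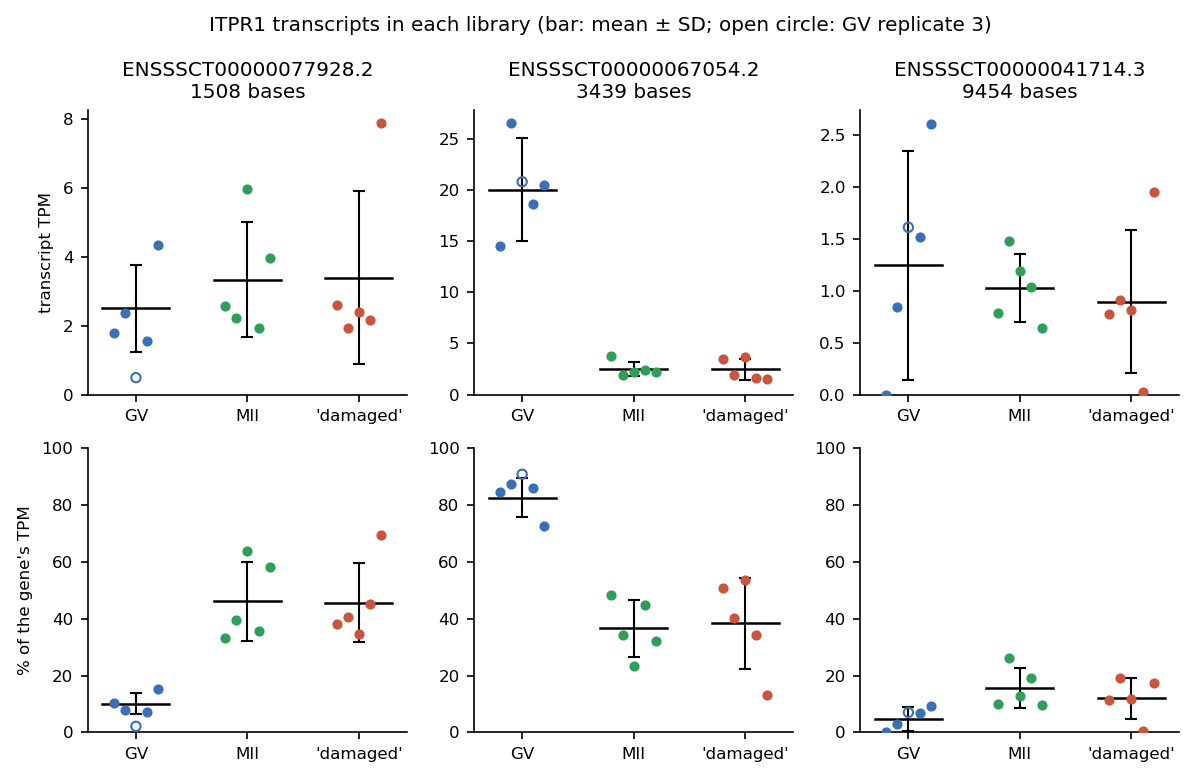
The 3 *ITPR1* transcripts, by length, in each GV, MII and ‘damaged’ library (points), as transcript TPM (upper row) and as percent of the gene's TPM (lower row); bars are the mean ± SD without GV library 3 (open circle). The 3439-base transcript holds at least 72.6% of the gene's TPM in the GV libraries and at most 53.5% in the cultured ones.

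*STIM1* (chromosome 9, 6066612 to 6270090), the sensor of store calcium, had 0.883, 1.54, 0.782 and 1.76 CPM in GV libraries 1, 2, 4 and 5, 0.954, 0.459, 0.850, 0.588 and 0.376 CPM in MII libraries 1 to 5, and 0.613, 0.699, 1.04, 0.258 and 0.405 CPM in ‘damaged’ libraries 1 to 5. The groups overlapped, and neither comparison was called, with a log2 fold change of -0.94 (SE 0.392, adjusted p = 0.0378) in MII and -1.06 (SE 0.398, adjusted p = 0.0232) in ‘damaged’ versus GV. It had only 16.4 to 42.3, 6.01 to 11.08 and 4.01 to 17.1 estimated counts per GV, MII and ‘damaged’ library. On library sizes the values were -1.84 and -1.90 and both were called, as was MIX versus GV (adjusted p = 0.00799).

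*ORAI1* (chromosome 14, 31012212 to 31028008), the channel that *STIM1* opens, had 8.83, 16.0, 13.0 and 25.2 CPM in GV libraries 1, 2, 4 and 5, 1.499, 1.95, 1.60, 1.63 and 2.21 CPM in MII libraries 1 to 5, and 1.43, 2.56, 0.840, 1.96 and 2.45 CPM in ‘damaged’ libraries 1 to 5. The GV libraries spread widely, yet the lowest of them was above all 10 cultured libraries. *ORAI1* had the lowest log2 fold change of the members tested, -3.04 (SE 0.333, adjusted p = 1.08e-07) in MII and -3.10 (SE 0.332, adjusted p = 8.29e-08) in ‘damaged’ versus GV, 8.20-fold and 8.56-fold lower. On library sizes the values were -3.93 and -3.96. Of all genes tested, 8.57% and 7.66% had a lower value. GV library 3 was the highest of all at 36.3 CPM.

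*TRPM7* (chromosome 1, 121146093 to 121250227), a cation channel with a kinase domain that carries calcium, magnesium and zinc, went the other way. It had 37.8, 34.6, 31.7 and 30.8 CPM in GV libraries 1, 2, 4 and 5, 126, 137, 124, 130 and 111 CPM in MII libraries 1 to 5, and 102, 115, 117, 121 and 108 CPM in ‘damaged’ libraries 1 to 5. Each cultured library was above each GV library (27.0% of all genes for MII and 26.6% for ‘damaged’), and the spread within a group was small. It was upregulated, with a log2 fold change of 1.90 (SE 0.123, adjusted p = 7.89e-11) in MII and 1.74 (SE 0.123, adjusted p = 2.63e-10) in ‘damaged’ versus GV, 3.72-fold and 3.34-fold. On library sizes it was still called, at 0.98 and 0.87. GV library 3 had 24.7 CPM. Of the cumulus and granulosa markers, *FST* and *PTGS2* were also higher in each cultured library with TMM. Others went the other way. *AMH* was at 0 in each MII library and at 0.119 CPM in GV library 1 to 0.396 CPM in GV library 5. *INHA* and *NR5A1* reached 0.408 and 0.432 CPM in GV and at most 0.0937 and 0.0752 CPM in cultured libraries, though each was at 0 in 1 GV library. Only 3 of the 13 markers had enough counts to be tested. Of these 3, 2 were called upregulated and 0 downregulated in each comparison with GV. The 12 markers other than *FST* together overlapped with GV, as did the sum of all 13 on library sizes. The part of cumulus RNA in the *TRPM7* values was not tested.

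*CAMK2G* (chromosome 14, 76535095 to 76632381), the calcium-calmodulin kinase of the egg, had 15.7, 22.3, 25.1 and 19.1 CPM in GV libraries 1, 2, 4 and 5, 11.3, 10.3, 18.0, 12.5 and 16.9 CPM in MII libraries 1 to 5, and 14.6, 11.5, 16.6, 16.1 and 15.4 CPM in ‘damaged’ libraries 1 to 5. The groups overlapped. The log2 fold change was -0.58 (SE 0.190, adjusted p = 0.0105) in MII and -0.45 (SE 0.188, adjusted p = 0.0377) in ‘damaged’ versus GV, neither called, and -1.49 and -1.32 on library sizes, both called. With a filter of 10 CPM both were called as well (-0.91, adjusted p = 2.76e-04, and -0.77, adjusted p = 0.00118), and with MII and ‘damaged’ joined as MIX the value was -0.52 (adjusted p = 0.00637). The MII value just missed the threshold and was called without GV library 1 (-0.68, adjusted p = 0.00344), without MII library 3 (-0.68, adjusted p = 0.00454), without MII library 5 (-0.66, adjusted p = 0.00654), with all 5 GV libraries (-0.69, adjusted p = 0.00494), and with a replicate block (-0.65, adjusted p = 0.00451). None of its 4 transcripts tested was called for its share, and the leading one, ENSSSCT00000058449, held 76.8% ± 8.61 (n = 4) in GV and 61.9% ± 18.4 (n = 10) in MIX (adjusted exact permutation p = 0.157).

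*PPP3CA* (chromosome 8, 119429181 to 119754615), the calcineurin subunit, had 11.6, 17.5, 13.3 and 17.4 CPM in GV libraries 1, 2, 4 and 5, 15.9, 15.5, 15.5, 15.5 and 12.3 CPM in MII libraries 1 to 5, and 16.3, 11.5, 13.2, 15.0 and 15.0 CPM in ‘damaged’ libraries 1 to 5. The groups overlapped throughout with TMM, at 15.0 ± 2.996, 15.0 ± 1.48 and 14.2 ± 1.86 CPM (SD). Its log2 fold change was 0.01 (95% interval -0.34 to 0.36) in MII and -0.07 (95% interval -0.42 to 0.28) in ‘damaged’ versus GV, not called (adjusted p = 0.959 and 0.735), whereas on library sizes the MII value turned to -0.90 and the ‘damaged’ value was -0.93, both called and close to the median of all genes on that scale. GV library 3 had 41.5 CPM, far above the other 14 libraries.

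**Figure D3:**
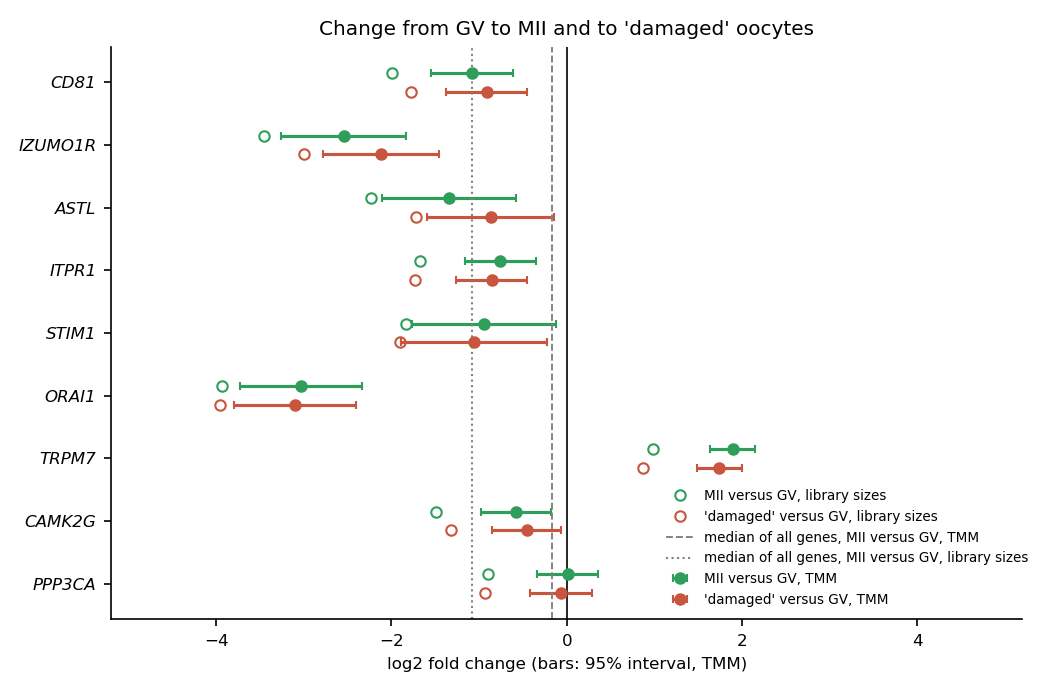
Log2 fold change of the 9 members tested in MII (green) and ‘damaged’ (red) versus GV; filled points with 95% intervals are TMM-scaled, open points use library sizes, and the vertical lines mark 0 and the median of all genes for MII versus GV on each scale (-0.17 and -1.09). *TRPM7* is to the right of 0 on both scales, and *ORAI1* and *IZUMO1R* lie farthest to the left.

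Between ‘damaged’ and MII oocytes no member was called, nor was any of the 13220 genes in limma (0%). At an unadjusted p under 0.05 there were 195 genes in limma, 263 with edgeR and 251 with DESeq2, also without a call. Each of these counts is below the share of 0.05 that chance alone would give over all genes. The libraries of the 2 groups overlapped for each member tested, and of all genes 0.174% lay wholly above and 0.0983% wholly below in ‘damaged’. The 95% intervals show how precisely these libraries measure the differences, and they do not bound what is possible. They come from the fit of all 3 groups, which shares 1 estimate of the spread with the GV libraries. The log2 fold change of ‘damaged’ versus MII was -0.15 (95% interval -0.38 to 0.08) for *TRPM7*, -0.08 (95% interval -0.42 to 0.27) for *PPP3CA*, -0.09 (95% interval -0.50 to 0.31) for *ITPR1*, 0.13 (95% interval -0.27 to 0.52) for *CAMK2G* and 0.17 (95% interval -0.31 to 0.65) for *CD81*. For the members with few counts the intervals were wider, -0.06 (95% interval -0.89 to 0.76) for *ORAI1*, -0.12 (95% interval -1.03 to 0.80) for *STIM1*, 0.43 (95% interval -0.40 to 1.26) for *IZUMO1R* and 0.47 (95% interval -0.33 to 1.27) for *ASTL*. A change of 2 on the log2 scale lies outside all 9 intervals. Since 7 columns of the gene table carry another library's name, groups here follow the names of the transcript files. For the stage, the values bear on these names directly: ‘damaged’ libraries 1 and 2, which the table names GV, had 6.55 and 8.72 CPM of the oocyte marker *ZAR1*, and GV libraries 1 and 2, which it names MII, had 125 and 156 CPM. The 3 other GV libraries had 162 to 240 CPM and the 8 other cultured ones 4.34 to 11.14 CPM. Between MII and ‘damaged’, where the table names MII libraries 1 and 2 as ‘damaged’, which name is right was not tested.

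Compared per transcript length, the order of the members differed between the stages. TPM carries no TMM correction, so these levels serve to compare members within a group. In GV, *CD81* led at 41.5 ± 15.9 TPM (SD, n = 4), followed by *ORAI1* at 27.9 ± 16.4 TPM and *ITPR1* at 24.4 ± 6.05 TPM, and *TRPM7* was at place 8 with 11.2 ± 1.11 TPM. Neighbours in this order overlapped in their libraries, except *TRPM7* and *STIM1* (0.876 ± 0.455 TPM). In MII, *TRPM7* was first at 20.2 ± 1.53 TPM (n = 5), without overlap with *CD81* at 9.05 ± 1.23 TPM, and *ORAI1* was at place 7 with 1.44 ± 0.240 TPM. In ‘damaged’ oocytes *TRPM7* had 18.8 ± 2.07 TPM and *CD81* 11.0 ± 3.60 TPM, which overlapped, and *ORAI1* had 1.57 ± 0.673 TPM. Among all genes with a TPM above 0, *TRPM7* was above 65.6% of genes in GV and 81.5% in MII, and *ORAI1* above 77.8% and 53.3%. *STIM1* and *CD9* held the last places in each group.

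**Figure D4:**
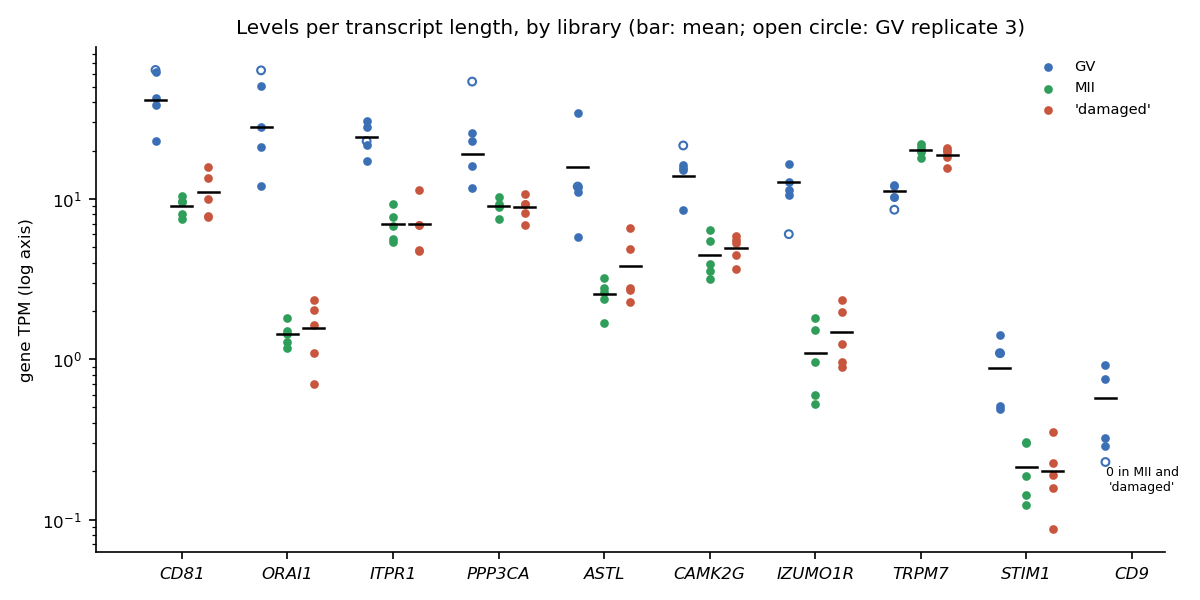
Gene TPM (log axis) of the 10 members in each library, in the order of the GV means; black bars are group means without GV library 3 (open circles), and values of 0 are not drawn. *TRPM7* is higher in the cultured libraries than in GV, and the group means of the other members are lower on this scale. TPM carries no TMM correction, and with TMM *PPP3CA* had a mean of 15.0 CPM in GV and 15.0 CPM in MII.

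In 6 lists of genes from the same pathways, 101 genes without the members, 78 were tested. From GV to MII 29 were upregulated and 21 downregulated (28.2% and 34.2% of all genes tested), and from GV to ‘damaged’ 26 and 23 (28.0% and 33.4%). On library sizes the MII counts were 13 and 44, so the balance of directions depends on the scaling. The lists were chosen with earlier results of these data known, so their counts are descriptions and not tests of a pathway.

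The zinc transport list had 7 of its 8 genes upregulated in MII and 6 in ‘damaged’ (28.2% and 28.0% of all genes tested). None was downregulated (34.2% and 33.4% of all genes). Its median log2 fold change was 1.503 in MII (all genes: -0.17). *SLC39A10*, a zinc importer, had a log2 fold change of 2.44 (SE 0.133, adjusted p = 1.09e-11) in MII and 2.32 in ‘damaged’ versus GV. The exporter *SLC30A1* had 2.34 (SE 0.210, adjusted p = 6.60e-09) in MII and 2.41 in ‘damaged’ versus GV, and *SLC30A6*, which carries zinc into the secretory pathway, 2.13 (SE 0.285, adjusted p = 1.47e-06) in MII and 2.05 in ‘damaged’ versus GV. On library sizes 4 of the 8 were called higher and 1 lower in MII, with a median of 0.56.

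Calcium entry genes moved in both directions, with values given here and for the lists that follow as log2 fold changes versus GV. Of 6 tested, 3 were upregulated and 2 downregulated in MII, with a median of 0.57 that turned to -0.35 on library sizes. The second store sensor, *STIM2*, was upregulated (1.70 ± 0.325 SE, adjusted p = 1.05e-04 in MII, and 1.70 in ‘damaged’). *TRPM4*, a calcium-activated cation channel, was downregulated (-3.67 ± 0.493 SE, adjusted p = 1.57e-06 in MII, and -2.67 in ‘damaged’).

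For calcium release and clearance, 6 of 21 genes tested were upregulated and 7 downregulated in MII, and 4 and 8 in ‘damaged’, with a median of 0.28 in MII that turned to -0.62 on library sizes. Of 2 calcium pumps of the endoplasmic reticulum, *ATP2A3* was downregulated (-4.42 ± 0.596 SE, adjusted p = 1.66e-06 in MII, and -4.07 in ‘damaged’) from a mean of only 1.08 CPM in GV. *ATP2A2*, given beside it after its values were seen, had 136 ± 37.6 CPM in GV and 182 ± 28.8 CPM in MII (SD), and was not called (0.45 ± 0.169 SE, adjusted p = 0.024 in MII, and 0.37 in ‘damaged’; -0.46 in MII on library sizes). Also downregulated were the phospholipases *PLCD3* (-3.72 ± 0.432 SE, adjusted p = 2.35e-07 in MII, and -3.99 in ‘damaged’) and *PLCD1* (-3.28 ± 0.552 SE, adjusted p = 2.57e-05 in MII, and -3.66 in ‘damaged’).

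Calmodulin, kinase and phosphatase partners counted 7 upregulated and 6 downregulated genes of 22 tested in both comparisons, with a median of -0.19 in MII. The calmodulin gene *CALM3* was downregulated (-3.74 ± 0.171 SE, adjusted p = 2.09e-12 in MII, and -3.57 in ‘damaged’). Calmodulin is encoded by several genes with the same protein, so reads could be shared among them. The protein kinases C *PRKCZ* (-3.83 ± 0.502 SE, adjusted p = 1.18e-06 in MII, and -3.47 in ‘damaged’) and *PRKCA* (-3.68 ± 0.362 SE, adjusted p = 2.41e-08 in MII, and -2.93 in ‘damaged’) were downregulated as well.

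Egg membrane partners had 3 genes upregulated and 3 downregulated of 9 tested in both comparisons, with a median of 0.23 in MII that turned to -0.68 on library sizes. The tetraspanin *CD151* was downregulated (-4.82 ± 0.552 SE, adjusted p = 1.93e-07 in MII, and -4.88 in ‘damaged’), and so was *PTGFRN*, a partner of *CD9* (-2.56 ± 0.436 SE, adjusted p = 2.95e-05 in MII, and -1.33 in ‘damaged’). *PIGA*, needed for the lipid anchor that also holds *IZUMO1R*, was upregulated (1.76 ± 0.193 SE, adjusted p = 1.10e-07 in MII, and 1.74 in ‘damaged’). Of the cortical granule release genes, 3 were upregulated and 3 downregulated in MII and 3 and 4 in ‘damaged’, of 12 tested. The membrane fusion genes *STX4* (-2.15 ± 0.252 SE, adjusted p = 2.69e-07 in MII, and -2.58 in ‘damaged’) and *NAPA* (-2.06 ± 0.376 SE, adjusted p = 6.46e-05 in MII, and -1.16 in ‘damaged’) were downregulated, and *STX3* was upregulated (1.87 ± 0.160 SE, adjusted p = 3.42e-09 in MII, and 2.02 in ‘damaged’). In ‘damaged’ versus GV each gene named from these lists as called in MII was also called, in the same direction.

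**Figure D5:**
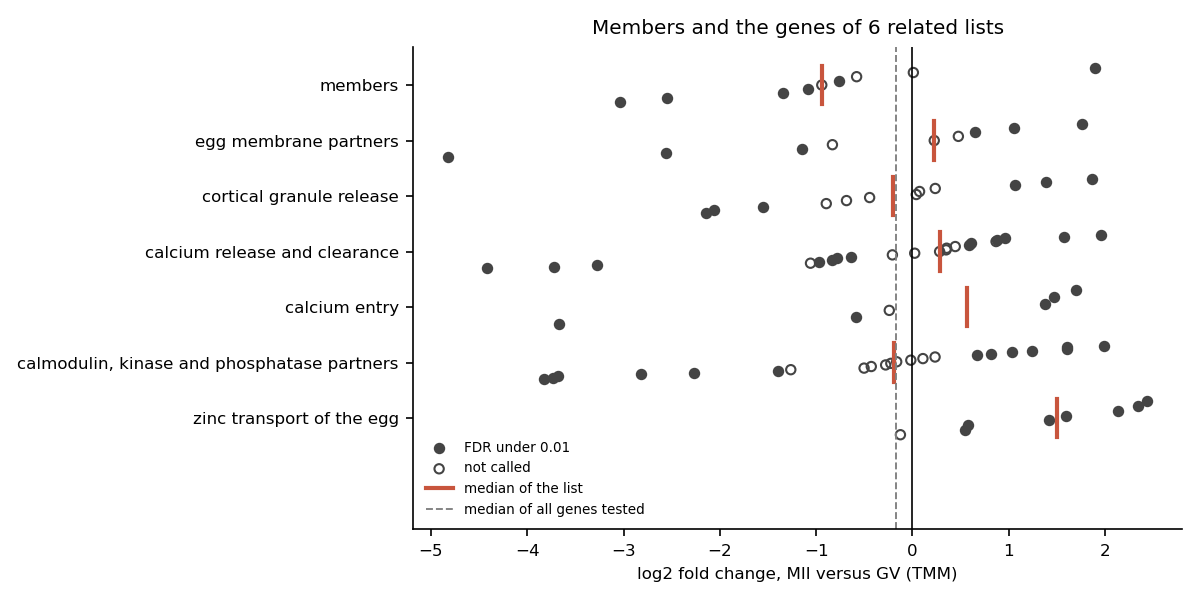
Log2 fold change in MII versus GV (TMM, x axis) of the 9 members tested and of the genes of 6 related lists; filled points have an adjusted p under 0.01, red bars are list medians and the dashed line is the median of all genes tested (-0.17). The zinc transport genes, with 1 exception near 0, lie to the right of 0 with TMM, whereas on library sizes 3 of the 8 lie to the left of 0 and the list median is 0.56.

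The gene whose centred log2 CPM over the 14 libraries was closest to that of a member was *FAM13C* for *TRPM7* (root mean square difference 0.0798), *SEC63* for *PPP3CA* (0.114), *KLHL18* for *ITPR1* (0.133), *CRTC3* for *CD81* (0.143), *EIF4H* for *CAMK2G* (0.162), *B4GALT6* for *STIM1* (0.192), *REXO1* for *ASTL* (0.211), *VPS33B* for *IZUMO1R* (0.225) and *ATP9A* for *ORAI1* (0.254), all on the log2 scale. The 14 libraries share the group differences, so these are descriptions of likeness.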

How the data were processed

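RNAseq files of 15 pig oocyte libraries were used (5 GV, 5 MII, 5 ‘damaged’), grouped by their labels. The authors made cDNA with SMART-Seq HT, sequenced single ends, and estimated counts per transcript and TPM with Kallisto (version 0.43 per the labels) on Sscrofa11.1 transcripts; the deposited estimated counts are not normalized and do not use strand. The deposited gene table holds expected counts scaled by tximport from TPM and transcript length. Of its 15 columns, 7 have the total of a library with another name and were not used here. The 8 others served to find each gene's transcripts, and the same formula applied to the deposited transcript TPM then gave gene counts for each of the 15 libraries. This placed 18537 of 18954 detected genes and at least 99.99% of the counts, with 99.2% of 3747 genes exact on simulated data. Transcript lengths are those deposited in the transcript files.

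Genes passing filterByExpr (minimum count 10, 13220 genes) were tested with limma 3.58.1 (voom) and TMM factors from edgeR 4.0.16, in 1 fit of the 3 groups without GV library 3, two-sided, with Benjamini-Hochberg adjustment over all genes, following the filter function, tool and thresholds of the study's methods. It differs from the study in the TMM scaling, since no scaling is named there, in keeping MII and ‘damaged’ apart, and in the genes kept, since the study's text also speaks of a filter at 10 CPM. On simulated data the fit was checked with known changes. DESeq2 1.42.0, edgeR's quasi-likelihood test, library sizes, filters, GV library 3, a replicate block and leaving out each library were alternatives. Transcript shares were compared with exact permutation tests. The main fit did not pair libraries by replicate number. Of 13 same-numbered pairs, 3 had a correlation of deviations over 0.1, and 6 correlated best with their own number. This does not settle whether same-numbered libraries share a collection. Between libraries of 1 group the chi-square per gene was 15.2 to 209, so no library was a copy of another. From each pathway list the 3 called genes with the largest absolute change in MII versus GV and no overlap of libraries are named, except 1 that is not reported here. The members and lists were chosen with earlier results of these data known. Positions are those of RefSeq by symbol.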

Additional observations from a re-analysis of the deposited data

Results flagged for a closer look

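In 28 groups of 5 libraries, 4 had 1 library whose gap to its nearest neighbour was over 0.71 of the whole range, Dixon's limit at 95%; about 1 in 20 groups would show this by chance. *IZUMO1R* had 1.33 CPM (TMM-scaled) in GV library 3 and 2.69 to 3.20 CPM in the other GV libraries. *ASTL* had 12.3 CPM in GV library 5 and 3.01 to 4.85 CPM in the others, and its call in MII versus GV was lost without that library. *PPP3CA* had 41.5 CPM in GV library 3, the shallowest library at 6.40 M counts, and 11.6 to 17.5 CPM in the other GV libraries. *PPP3CA* also had 12.3 CPM in MII library 5 and 15.5 to 15.9 CPM in the other MII libraries.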

How the results depend on the processing

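With library sizes in place of TMM, 8 members were called lower in MII and 8 in ‘damaged’ versus GV, list genes called higher numbered 13 and 13 and lower 44 and 45, and all genes called higher numbered 1447 and 1476 and lower 7609 and 7402; *PPP3CA* in MII versus GV turned from 0.01 to -0.90. With a filter of 10 CPM, which left 6 members, 1 was a downregulated DEG in each comparison, list genes called higher numbered 19 in MII, those called lower 9 and 9, and all genes called lower 2889 and 2838. With all 5 GV libraries, 1 member was a downregulated DEG in ‘damaged’, and the mean level of *PPP3CA* in GV was 26.1 TPM in place of 19.2 TPM. With MII and ‘damaged’ joined as MIX, 7 members were called lower. With the 8 libraries whose names agree in both kinds of file, chosen after seeing the data, 19 list genes were called higher in MII and 1 member was a downregulated DEG in ‘damaged’. Leaving out 1 library at a time, the downregulated DEGs among members in ‘damaged’ numbered 1 to 2. Transcripts called numbered 0 for ‘damaged’ against GV alone, where the few libraries did not allow the 2 *ITPR1* transcripts to be called by themselves. The cause of these differences was not tested, beyond the fewer genes or libraries that a filter or subset leaves.

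With a replicate block in limma, *CAMK2G* in MII versus GV was called (-0.65, adjusted p = 0.00451), and no other member changed its call. Between ‘damaged’ and MII, 353 genes then had an unadjusted p under 0.05 in limma. None was called, with a smallest adjusted p of 0.0232. Correlations of same-numbered pairs ran from -0.10 to 0.32 and 6 of 13 correlated best with their own number. *TRPM7* (log2 fold change 0.98 to 1.99 in MII and 0.87 to 1.92 in ‘damaged’ versus GV), *ORAI1* (-3.93 to -2.76 and -3.96 to -2.82) and *CD81* (-1.99 to -0.94 and -1.78 to -0.77) kept direction and call under each of 25 alternatives, as did *IZUMO1R* under the 24 that tested it (-3.46 to -2.33 and -2.995 to -1.92). Low counts limit *CD9*, *STIM1* and *IZUMO1R* most.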
